A study of Mus musculus with 6 samples.

Results

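The genes described here encode core proteins of the spliceosome and the RNA-binding proteins that steer it: the small nuclear ribonucleoprotein genes (Snrp), the serine/arginine-rich splicing factor genes (Srsf), the SF3A and SF3B subunit genes (Sf3) and the heterogeneous nuclear ribonucleoprotein genes (Hnrnp). They were taken by gene name from a table of 49315 genes. Of 57 names that matched, 4 carry a pseudogene suffix and 1, Snrpert, is annotated as a processed pseudogene, which left 52 genes: 12 Snrp, 11 Srsf, 9 Sf3 and 20 Hnrnp. RNA was sequenced from sorted mouse hepatocytes in 3 miR-206 and 3 control libraries. The mice were male C57BL/6J, 8 weeks old when a plasmid was forced into the liver by hydrodynamic injection, and the cells were isolated 4 weeks later. The miR-206 libraries hold GFP-positive hepatocytes, from 20 µg of a transposon plasmid in which a TTR promoter drives both miR-206 and GFP, given with a Sleeping Beauty transposase plasmid (0.8 µg). According to the design text the control libraries hold GFP-negative hepatocytes, sorted from the same 3 injected mice. The treatment label of the controls instead reads empty vector, and the counts do not decide between the descriptions. By the design text, plasmid uptake, GFP and miR-206 differ between the groups together and cannot be told apart. The gene Mir206 had 0 counts in all 6 libraries, which allows at most 0.722 CPM in the shallowest. An mRNA library does not measure the mature microRNA, so this count is no check of the labels.

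Splicing removes introns in a particle assembled from small nuclear RNAs and proteins. A set of related Sm proteins closes into a ring around the U1, U2, U4 and U5 RNAs, the SF3A and SF3B complexes hold the U2 particle on the branch point, SR proteins bind exonic enhancers and recruit the machinery, and hnRNPs coat the nascent RNA and often oppose them. Most of their genes are expressed in most cells, hepatocytes included, and many control their own mRNA through alternative exons that lead to decay.

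MiR-206 is a muscle microRNA. Its mature sequence is shown because its seed, in capitals (bases 2 to 8), sets which 3′ UTRs it could pair with. RefSeq places it at chr1:20679055-20679076 on the plus strand (GRCm38.p6).
mmu-miR-206-3p: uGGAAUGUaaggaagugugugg
The matching DNA site, ACATTCC, was found in the longest annotated 3′ UTR of 8 of the 52 genes (15.4%), against 1849 of 16822 tested genes with a 3′ UTR (11.0%). The median 3′ UTR had 847.5 bases among the 52 genes and 1112 bases among the tested genes. The sites of the 4 genes with the longer form, in which an A follows the site (an 8mer), are shown with the site in capitals. Hnrnpa3 carries a second, shorter site.
Hnrnpa3, 8mer: gtaacagaACATTCCAtttg
Hnrnpa3, shorter site: ttagatgtACATTCCtgagg
Hnrnpm: aatggctcACATTCCAatgt
Hnrnpu: ctttttaaACATTCCAcaag
Srsf9: cagagtctACATTCCAgatt
Hnrnpk, Hnrnpr, Srsf1 and Srsf3 each hold 1 shorter site. A site is a match of letters in the annotation, and binding was not measured.

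Total counts were 4157947, 4939030 and 5724329 in the miR-206 libraries, and 8966590, 15244017 and 14071679 in the control libraries. Mitochondrially encoded genes took 11.2%, 63.8% and 48.7% of counts in the miR-206 libraries, against 36.0%, 9.16% and 10.4% in the control libraries. Olfactory and vomeronasal receptor genes, which hepatocytes are not known to express, held 5.31, 3.60 and 5.24 counts per exonic kb in the miR-206 libraries, against 2.95, 1.39 and 1.22 in the control libraries. These counts are used below as a measure of each library's background. Hepatocyte markers, 15 genes with albumin among them, summed to 113072, 58398 and 88070 CPM of nuclear-gene counts in the miR-206 libraries and 97748, 135072 and 133625 in the control libraries, so all 6 libraries carried the labelled cell type. Across genes, log2 CPM of control 1 had a correlation of 0.854 and 0.856 with controls 2 and 3, which had one of 0.965 with each other.

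The 52 genes took a smaller share of the nuclear-gene counts in the miR-206 libraries. The share was 0.112%, 0.164% and 0.141% in the miR-206 libraries, against 0.254%, 0.215% and 0.205% in the control libraries. The groups did not overlap, and the means were 0.139% ± 0.0259 in miR-206 cells and 0.225% ± 0.0258 in control cells (SD, n = 3 each). At the receptor density of each library, background alone would supply 34.6%, 33.2% and 34.0% of these counts in the miR-206 libraries, against 5.43%, 1.26% and 1.27% in the control libraries. With background subtracted from all protein-coding genes the share was 0.0940%, 0.173% and 0.132% in the miR-206 libraries and 0.279%, 0.222% and 0.213% in the control libraries, and the groups again did not overlap. In bulk RNA, fewer cells of a type and less RNA per cell cannot be told apart.

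**Figure D1:**
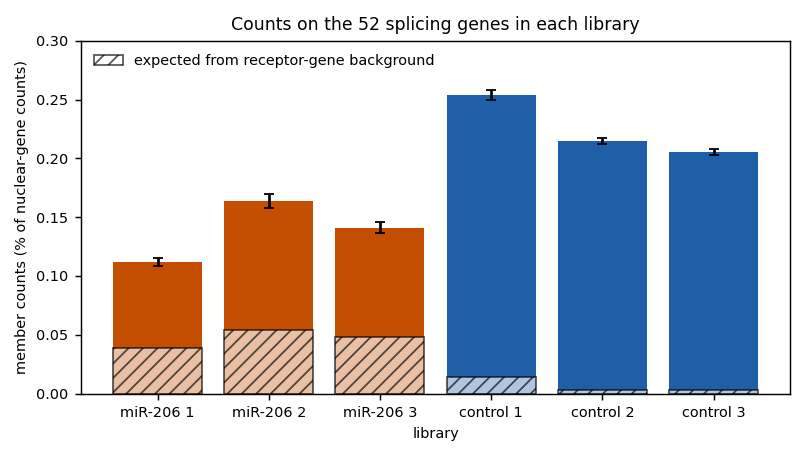
Counts on the 52 splicing genes as a percent of nuclear-gene counts (vertical axis) in each library (horizontal axis), with 95% Wilson intervals that cover counting error only; the hatched part is what the receptor-gene background would supply. The 3 miR-206 bars lie between 0.112% and 0.164% and the 3 control bars between 0.205% and 0.254%, and 33.2% to 34.6% of each miR-206 bar is hatched.

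In the counts as deposited, the makeup of that share differed by family. Background would supply a mean of 33.9% of these counts in miR-206 libraries and 2.65% in control libraries. Its part in the makeup was not tested. The Sf3 genes made up 20.3% ± 1.11 of the counts on the 52 genes in miR-206 cells and 16.5% ± 0.181 in control cells, whereas the Snrp genes made up 13.2% ± 1.28 in miR-206 cells and 16.7% ± 1.05 in control cells (SD, n = 3 each). The Srsf genes were at 16.3% ± 0.535 in miR-206 cells and 17.0% ± 0.476 in control cells, and the Hnrnp genes at 50.2% ± 0.595 in miR-206 cells and 49.8% ± 1.16 in control cells.

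In the counts as deposited, most of the 52 genes were lower in miR-206 cells under TMM scaling, but not under scaling on hepatocyte markers, described further on. By edgeR's quasi-likelihood test with TMM scaling, at an adjusted p under 0.05 over all 24382 genes tested, 42 of the 52 fell, where 29.6% of all genes fell. Srsf12 rose, where 25.8% of all genes rose, and 9 did not pass. The median log2 fold change of the 52 genes (miR-206 over control) was -2.46, beside 0.45 over all genes tested. In the same fit 12 of the 15 hepatocyte markers fell, with a median of -2.38, so a fall of this size was not particular to the 52 genes. CPM values of the groups did not overlap for 44 genes, 43 lower in miR-206 cells (30.3% of all genes) and 1 higher (36.7% of all genes). By family, 11 of 12 Snrp, 9 of 11 Srsf, 7 of 9 Sf3 and 15 of 20 Hnrnp genes fell, with median log2 fold changes of -2.50, -2.04, -2.88 and -2.19 in that order (0.14, 0.68, -0.47 and 0.50 when scaled on hepatocyte markers). Of the 42 falls, 39 held in all 6 fits that each left out 1 library; the others were Sf3a3, Srsf9 and Sf3a2, the last of which was tested in 4 of them and fell in all 4. With only miR-206 1, the miR-206 library with few mitochondrial counts, set against the 3 controls, edgeR called 0 of 52, as it called 0 of 29205 genes in all, so this fit says nothing about the stability of the calls. Its spread comes from the controls alone, and the lone miR-206 library is assumed to vary like them. At an unadjusted p under 0.05, 35 of the 52 were lower, beside 17.5% of all genes, and none was higher, beside 7.86% of all genes; the median was -2.21, beside 0.52 over all genes.

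All 7 genes of the Sm ring fell, and 1 of them, Snrpb, also did so when scaled on hepatocyte markers. Snrpb, which encodes SmB and lies on chromosome 2 (130171414 to 130179403, minus strand, GRCm38), had 72, 31 and 50 counts in the miR-206 libraries, against 625, 1307 and 1392 in the control libraries. In TMM-normalised CPM (counts divided by the scaled library size), that was 7.10 ± 1.80 in miR-206 cells and 125 ± 38.6 in control cells (SD, n = 3 each). Every control library was above every miR-206 library, and the log2 fold change was -4.13 (SE 0.46, adjusted p = 0.000281 by edgeR), the largest fall among the 52 genes. Snrpd2, for the SmD2 protein, had 18, 12 and 22 counts in the miR-206 libraries and 165, 477 and 387 in the control libraries, with a log2 fold change of -3.96 (SE 0.41, adjusted p = 0.000271 by edgeR). Snrpe, for SmE, had 61, 30 and 38 counts in the miR-206 libraries and 247, 718 and 658 in the control libraries, with a log2 fold change of -3.32 (SE 0.44). Both genes were separated between the groups. The other 4 ring genes, Snrpd1, Snrpd3, Snrpf and Snrpg, had log2 fold changes between -2.84 and -1.89. As a level per exonic kb, the 7 genes spanned 0.935 to 5.39 CPM in miR-206 cells and 8.37 to 63.4 CPM in control cells.

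The 5 other Snrp genes had log2 fold changes between -2.25 and -0.55, and 4 of them fell. Snrpa1, for a protein of the U2 particle, averaged 9.73 ± 1.04 CPM in miR-206 cells and 24.6 ± 2.94 CPM in control cells, and fell by 1.34 on the log2 scale (adjusted p = 0.00356 by edgeR). Snrpc, for a U1 protein that helps the particle recognise the 5′ splice site, averaged 4.79 ± 0.888 CPM in miR-206 cells and 11.7 ± 2.84 CPM in control cells, and fell by 1.29 (adjusted p = 0.0121 by edgeR). Snrpa, for another protein of U1, and Snrpb2, for another protein of U2, had log2 fold changes of -2.25 and -1.85. Snrpn, an imprinted relative of Snrpb best known from brain, did not pass: it had 37, 45 and 44 counts in the miR-206 libraries and 54, 106 and 80 in the control libraries, a log2 fold change of -0.55 (SE 0.37, adjusted p = 0.209 by edgeR), and its CPM values overlapped.

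Among the SF3 genes, 5 of the 6 Sf3b subunits fell under TMM scaling. Sf3b2 had 69, 49 and 51 counts in the miR-206 libraries and 454, 1076 and 880 in the control libraries, or 8.11 ± 1.24 CPM in miR-206 cells and 90.4 ± 27.0 CPM in control cells, and a log2 fold change of -3.48 (SE 0.41, adjusted p = 0.000297 by edgeR). Sf3b6, whose product contacts the branch point adenosine, averaged 4.20 ± 1.13 CPM in miR-206 cells and 45.6 ± 13.3 CPM in control cells, a log2 fold change of -3.44. It had the highest control level per exonic kb of the family, 16 CPM per kb. Sf3b5 and Sf3b4 had log2 fold changes of -3.41 and -3.21. Sf3b1, the subunit that grips the branch site, averaged 26.5 ± 3.86 CPM in miR-206 cells and 161 ± 46.7 CPM in control cells, a log2 fold change of -2.60 (adjusted p = 0.00085 by edgeR). Sf3b3, a scaffold subunit of the same complex, had closer values: 269, 185 and 268 counts in the miR-206 libraries and 321, 392 and 400 in the control libraries, and a log2 fold change of -0.32 (SE 0.31, adjusted p = 0.375 by edgeR). Its CPM values still did not overlap, at 34.3 ± 0.744 in miR-206 cells and 42.8 ± 2.34 in control cells. In the SF3A complex, Sf3a2 fell (log2 fold change -2.88) at 5, 2 and 2 counts in the miR-206 libraries and 27, 22 and 34 in the control libraries. Sf3a1 did not pass (-0.36, adjusted p = 0.3 by edgeR). Sf3a3 fell by 1.06 (adjusted p = 0.0165 by edgeR), a call lost without control 3 (adjusted p = 0.063). Sf3b1 and Sf3a2 are named after their values were seen.

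Of the 11 SR genes, 9 fell under TMM scaling. Srsf7, a shuttling SR protein with a zinc knuckle, had 38, 11 and 43 counts in the miR-206 libraries and 348, 462 and 409 in the control libraries, or 4.15 ± 1.90 CPM in miR-206 cells and 46.7 ± 1.05 CPM in control cells, and a log2 fold change of -3.47 (SE 0.41, adjusted p = 0.000297 by edgeR). Srsf5, the SR gene with the highest control level per exonic kb (25.8 CPM per kb), averaged 13.2 ± 1.37 CPM in miR-206 cells and 103 ± 21.9 CPM in control cells, a log2 fold change of -2.96. Srsf3, a small SR protein that also takes part in mRNA export, averaged 14.1 ± 3.30 CPM in miR-206 cells and 79.7 ± 3.28 CPM in control cells, a log2 fold change of -2.50. The groups were well apart for these 3 genes. Srsf9 had 28, 5 and 33 counts in the miR-206 libraries and 18, 155 and 120 in the control libraries. It fell by 1.84 (adjusted p = 0.0436 by edgeR), but control 1 lay inside the miR-206 range, and the call was lost in 5 of the 6 fits that left out 1 library, all but the one without control 1 (adjusted p 0.059 to 0.127). Srsf4 did not pass (-0.97, adjusted p = 0.187 by edgeR).

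Srsf12, on chromosome 4 (33208991 to 33233340, plus strand, GRCm38), was the 1 gene of the 52 that rose, and it was nearly at background. It had 14, 21 and 33 counts in the miR-206 libraries and 6, 13 and 3 in the control libraries, and a log2 fold change of 1.96 (SE 0.67, adjusted p = 0.03 by edgeR). Set against the receptor density and its own exonic length, these counts were 1.53 times background in miR-206 cells and 1.26 times in control cells. The call was lost without control 3, miR-206 1, miR-206 2 or miR-206 3 (adjusted p 0.0599 to 0.197), and DESeq2 gave an adjusted p of 0.0594.

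Of the 20 hnRNP genes, 15 fell under TMM scaling. Hnrnpa2b1, which binds RNA in splicing, transport and localisation, had the highest control level per exonic kb of the family (47.7 CPM per kb). It had 170, 159 and 201 counts in the miR-206 libraries and 1767, 3585 and 2975 in the control libraries, and a log2 fold change of -3.62 (SE 0.47, adjusted p = 0.000336 by edgeR). The groups were far apart. Hnrnpc, which binds uridine tracts, averaged 10.9 ± 1.90 CPM in miR-206 cells and 95.6 ± 12.7 CPM in control cells, a log2 fold change of -3.13. Hnrnph2, of the family that binds G-rich RNA, averaged 4.76 ± 2.07 CPM in miR-206 cells and 54.1 ± 14.2 CPM in control cells (-3.52), and Hnrnpdl, a relative of Hnrnpd, 4.58 ± 0.336 CPM in miR-206 cells and 34.0 ± 9.95 CPM in control cells (-2.89). Hnrnpab, for a protein that binds RNA and DNA, had a log2 fold change of -3.67, from 25, 20 and 27 counts in the miR-206 libraries and 105, 625 and 467 in the control libraries.

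Other hnRNP genes had smaller differences, and 5 did not pass. Hnrnpa1, a widely studied splicing repressor, averaged 12.4 ± 3.11 CPM in miR-206 cells and 35.5 ± 5.79 CPM in control cells and fell by 1.52. Its relative Hnrnpa3 averaged 21.3 ± 3.00 CPM in miR-206 cells and 50.5 ± 5.47 CPM in control cells and fell by 1.24. Hnrnph3 had 118, 72 and 130 counts in the miR-206 libraries and 148, 169 and 147 in the control libraries, or 15 ± 1.96 CPM in miR-206 cells and 17.9 ± 1.49 CPM in control cells, values that overlapped (log2 fold change -0.25, SE 0.28, adjusted p = 0.446 by edgeR). Hnrnpll, known for splicing of the CD45 transcript in T cells, was at -0.14 (adjusted p = 0.763 by edgeR). Hnrnpr, named after its values were seen, was at 0.32 (adjusted p = 0.402 by edgeR). Hnrnpd and Hnrnpul1 did not pass either. In miR-206 cells Hnrnpll, Hnrnpr, Hnrnpd and Hnrnpul1 stood at only 1.64, 2.46, 1.89 and 2.64 times background. None of them was in the background-corrected fit described further on, so their values do not show that expression was kept.

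**Figure D2:**
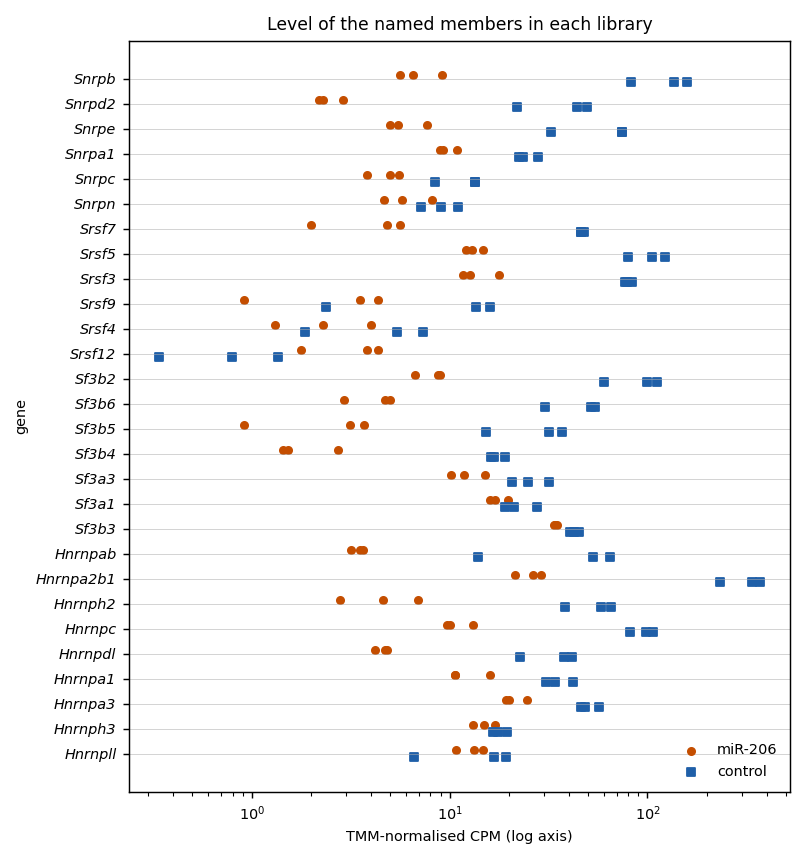
TMM-normalised CPM (log axis) of the 28 genes chosen by a rule for naming, with 1 point per library, miR-206 as circles and control as squares. Snrpb, Srsf7, Sf3b2 and Hnrnpa2b1 are well separated, whereas Snrpn, Hnrnph3 and Hnrnpll overlap and Srsf12 alone lies higher in miR-206 cells.

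The control libraries differed among themselves on these genes. The CPM of control 1 was 0.622 times the mean of controls 2 and 3 at the median of the 52 genes (0.875 over all genes tested), with a range of 0.153 to 1.20, and 14 genes were under 0.5. The lowest ratios belonged to Srsf6 (0.153), Srsf9 (0.160), Hnrnpa0 (0.177) and Hnrnpab (0.236). Srsf6, an SR protein named after its values were seen, had 40, 24 and 41 counts in the miR-206 libraries and 60, 523 and 438 in the control libraries. Without control 1, 46 of the 51 genes tested fell, where 34.7% of all genes fell. Control 1 also held 36.0% mitochondrial counts and a cholangiocyte marker sum of 4068 CPM of nuclear-gene counts, against 602 and 747 in controls 2 and 3. The part of these in its values was not tested.

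Much of what was counted on these genes in miR-206 cells was close to background. Relative to the receptor density, the 52 genes stood at a median of 2.66 times background in miR-206 cells (0.239 to 7.79) and 38.8 times in control cells (1.26 to 302). In miR-206 cells 29 genes were under 3 times background, against 1 in control cells. Sf3a2 (0.239 times) and Srsf4 (0.992 times) were at or under background in miR-206 cells. The genes farthest above it there were Snrpg (7.79 times), Hnrnph3 (7.18), Snrpe (6.65) and Sf3a3 (6.42).

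**Figure D3:**
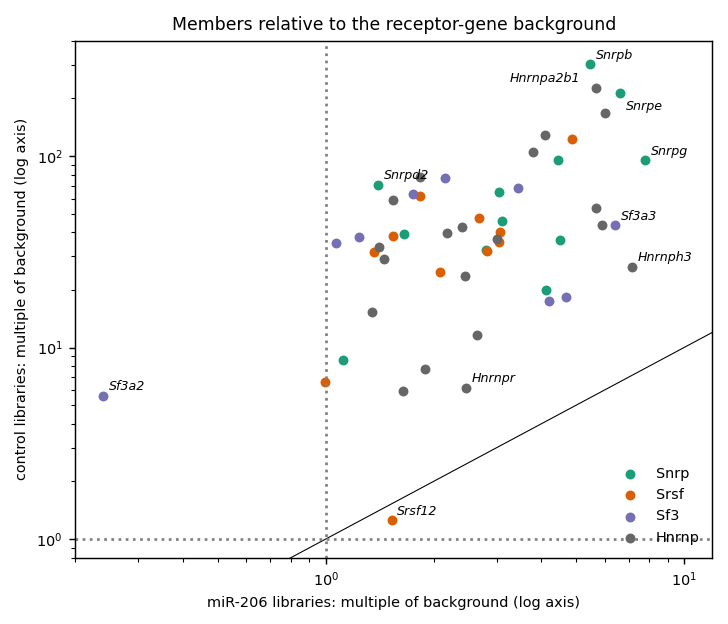
Each point is 1 of the 52 genes, placed by its counts as a multiple of the receptor-gene background in miR-206 libraries (horizontal, log axis) and in control libraries (vertical, log axis); dotted lines mark background and the solid line equal multiples. All genes but Srsf12 lie above the solid line, and in miR-206 cells they span 0.239 to 7.79 times background.

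With the background subtracted and the libraries rescaled by TMM, most of the genes that could still be tested were not called. This fit kept protein-coding nuclear genes whose mean counts were at least 10 times background, 4298 in all, and 36 of the 52 genes; Srsf2 (9.91 times) lay just outside and Hnrnpdl (10.5 times) just inside. Of the 36, 7 fell, where 15.7% of all genes in the fit fell, and 5 rose, where 19.5% rose, and 24 did not pass. The median log2 fold change was -0.37 beside -0.12 over all genes in the fit. Deposited counts had TMM factors of 1.94, 1.12 and 1.35 in the miR-206 libraries and 0.849, 0.634 and 0.629 in the control libraries. Corrected counts had factors of 0.534, 1.06 and 0.759 in the miR-206 libraries and 1.27, 1.35 and 1.35 in the control libraries. Scaled on library size alone, the corrected median was -1.18 beside -0.89 over all genes in the fit. The 7 that fell also fell in the deposited counts. None of the 36 reached 10 times background in miR-206 cells (7.79 at most), whereas all 36 were at 26.5 times or more in control cells. They passed through their control counts, so the counts and the median of this fit describe those genes only and support no direction for the 52. Leaving out single libraries moved the calls of all genes as well. Without control 2, 3 of the 36 fell and 2 rose, beside 6.29% and 8.92% of all genes. Without control 3, 3 fell and 2 rose, beside 4.54% and 7.69%, and without miR-206 3, 4 fell and 2 rose, beside 6.59% and 10.4%. Without miR-206 1, 5 fell and 3 rose, beside 11.7% and 14.1%, and without miR-206 2, 10 fell and 2 rose, beside 17% and 19.2%. Calls for 5 genes held in all 6 of these fits: Snrpb, Snrpd2, Sf3b2, Hnrnph3 and Sf3a3. These genes, too, passed through their control counts, so the repeated calls are no independent support.

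Within the snRNPs, the 2 falls were in the Sm ring. Snrpb fell by 1.44 (SE 0.29, adjusted p = 0.0111 by edgeR) and Snrpd2 by 2.71 (SE 0.50, adjusted p = 0.00811 by edgeR). Snrpe, Snrpd3, Snrpf and Snrpd1 had corrected log2 fold changes of -0.50, -0.13, -0.31 and -1.17 and did not pass, and Snrpg was at 0.90 (adjusted p = 0.0673 by edgeR). The U2 gene Snrpa1 rose by 1.23 (adjusted p = 0.0372 by edgeR), having fallen in the deposited counts. In the SF3 complexes, Sf3b2 fell by 1.67 (adjusted p = 0.012 by edgeR) and Sf3b5 by 2.53 (adjusted p = 0.0428 by edgeR). Sf3a3 rose by 1.67 (SE 0.34, adjusted p = 0.0111 by edgeR) and Sf3b1 was at -0.09. Before subtraction, Snrpb, Snrpd2, Sf3b2 and Sf3b5 stood at 5.47, 1.40, 1.75 and 1.07 times background in miR-206 cells. Snrpa1 and Sf3a3, which rose, stood at 4.50 and 6.42 times. Sf3b5 was at 0.361 times in miR-206 2, so its corrected count there was 0.

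None of the 7 SR genes in the corrected fit was called in either direction, and none had an unadjusted p under 0.05 by edgeR. Srsf7 was at -1.73 (adjusted p = 0.132 by edgeR) and Srsf5 at -0.34. Among 13 hnRNP genes, Hnrnpab (-1.61, adjusted p = 0.0287 by edgeR), Hnrnpdl (-1.62, adjusted p = 0.0284) and Hnrnpa2b1 (-0.94, adjusted p = 0.0385) fell. Hnrnph3, on chromosome 10 (63014664 to 63024217, minus strand, GRCm38), rose by 2.40 (SE 0.42, adjusted p = 0.00727 by edgeR). Hnrnpa3 (1.31, adjusted p = 0.0436 by edgeR) and Hnrnpa1 (1.14, adjusted p = 0.0429 by edgeR) rose as well. Before subtraction, Hnrnpab, Hnrnpdl and Hnrnpa2b1 stood at 1.83, 1.41 and 5.69 times background in miR-206 cells. Hnrnph3, Hnrnpa3 and Hnrnpa1 stood at 7.18, 5.92 and 5.67 times. Of the 5 rises, 4 were falls in the deposited counts, and Hnrnph3 had not passed there. The calls of Hnrnpa2b1, Snrpa1, Hnrnpa1 and Hnrnpa3 each held in only 1 of the 6 fits that left out 1 library. Those of Sf3b5 and Hnrnpab each held in 2 of the 6, and that of Hnrnpdl in 3.

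**Figure D4:**
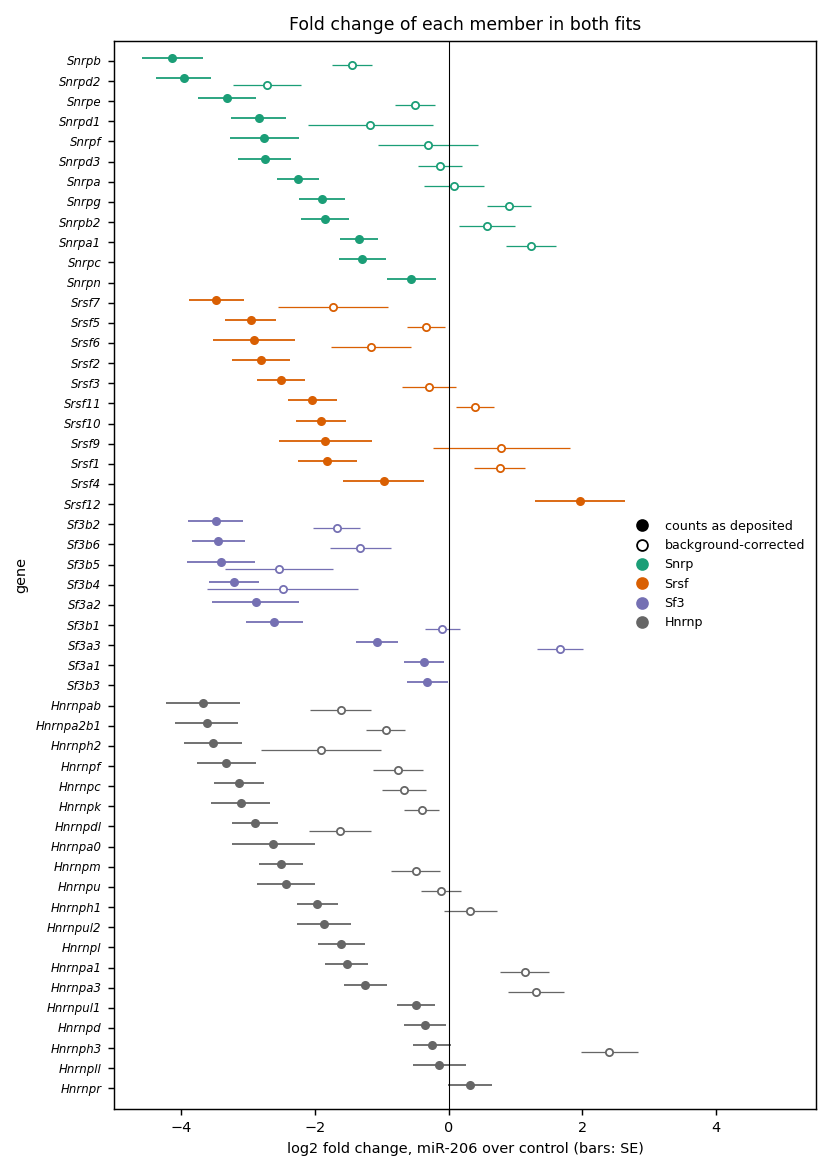
Log2 fold change, miR-206 over control, of each of the 52 genes (rows) with its SE, from the counts as deposited (filled) and from the background-corrected fit (open; 36 genes). Filled points run from -4.13 for Snrpb to 1.96 for Srsf12, and open points lie to the right of their filled partner, from -2.71 for Snrpd2 to 2.40 for Hnrnph3.

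The scaling of the libraries also set how many genes were called. Scaled on the hepatocyte markers, the deposited counts gave 1 fall among the 52 genes, Snrpb (1.49% of all genes fell), and 12 rises (64.4% of all genes rose), with a median of 0.35 beside 2.86 over all genes. Scaled on library size alone they gave 27 falls (15.5% of all genes) and 2 rises (47.7% of all genes), with a median of -1.37 beside 1.47. The median of the 52 genes lay below that of all genes with TMM, library size and hepatocyte markers. Rescaling shifts all genes by a similar amount, so these comparisons are not separate support for one another. Snrpb, at -1.41 on the hepatocyte scale (adjusted p = 0.0177 by edgeR), fell in all 9 fits of the deposited counts that kept every library. In the corrected counts the hepatocyte scale gave 5 falls (11% of all genes in that fit) and 1 rise, Hnrnph3 (10.1%), and library size alone gave 14 falls (31%) and 1 rise (5.63%). Snrpb and Snrpd2 fell in all 7 corrected fits with every library, and Hnrnph3 rose in all 6 that included it. In the main corrected fit these genes entered through their control counts, and the other fits reuse the same counts. The repeated calls are therefore no independent support.

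**Figure D5:**
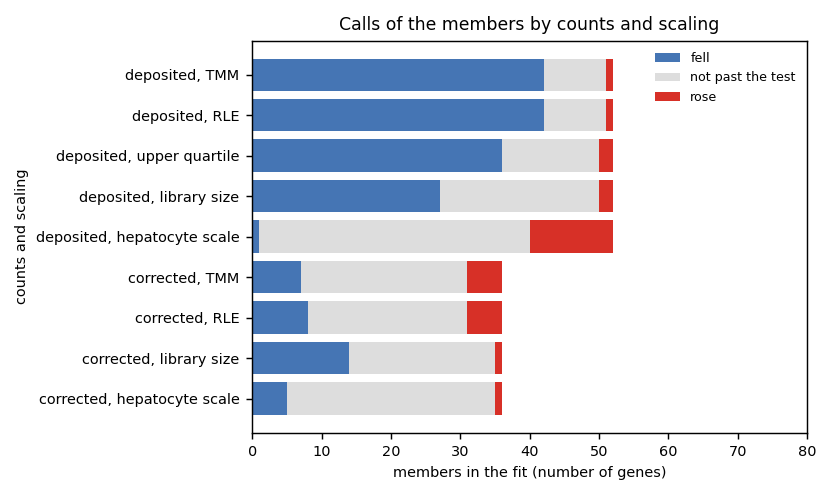
Number of the 52 genes (36 in the corrected counts) that fell, did not pass or rose in miR-206 cells, for deposited and background-corrected counts under each scaling (rows). Falls make up 42 genes in the top row and 1 on the hepatocyte scale of the deposited counts, and 5 to 14 in the corrected counts.

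The genes with a miR-206 site are set beside the others without a test. Of the 8 with a site, 7 fell in the deposited counts with a median of -2.13, where 29.6% of all genes fell. Of the 44 without one, 35 fell with a median of -2.61. After correction, 7 of the 8 were in the fit, with a median of -0.11; 1 rose, Hnrnpa3, the gene with 2 sites, and 0 fell (0 at an unadjusted p under 0.05, edgeR). The 29 without a site had a median of -0.66, and 7 fell and 4 rose. Among all genes in the corrected fit, 15.7% fell and 19.5% rose. Of the genes whose sites are printed above, Hnrnpm, Hnrnpu, Srsf9 and Hnrnpa3 had deposited log2 fold changes of -2.51, -2.43, -1.84 and -1.24.

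Several of these genes have near-identical copies in the genome, which bears on how reads were counted. Of the 52, 36 shared at least 1 stretch of 50 bases with another annotated gene and 12 shared over 20% of theirs, among them Sf3b4 (49.3%), Hnrnpa1 (46.4%, with 18 pseudogenes) and Hnrnpa3 (28.2%, with 41 pseudogenes), whose values are uncertain for that reason. Hnrnph3, Sf3b2 and Srsf12 shared none, and Snrpb shared 0.0899%. Of the 12, 11 fell in the deposited counts, and after correction 2 of 11 rose and 0 fell (0 at an unadjusted p under 0.05, edgeR). Of the other 40, 31 fell, and after correction 3 of 25 rose and 7 fell. Over all genes tested, 29.6% fell in the deposited counts. Among all genes in the corrected fit, 15.7% fell and 19.5% rose.

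Promoters were found for 46 of the 52 genes in RefSeq (GRCm38.p6), as windows around the annotated start. The ETS motif CCGGAAG, on either strand, was in 16 of them (34.8%) and in 12.3% of 16333 protein-coding promoters, and the median number of CG pairs was 24.5 against 14. The CCAAT box was in 47.8% against 38.7%, TATAAA in 13.0% against 12.8%, a YY1 motif of 10 bases in 1, Sf3a1 (2.17%), against 1.34%, and an NRF1 motif of 10 bases in 0 against 1.38%. These are matches of letters, and binding was not measured.

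Most other genes of the splicing pathway fell as well in the deposited counts. Over 9 lists, 134 genes were tested and 96 fell (29.6% of all genes); 0 rose, with 0 at an unadjusted p under 0.05 by edgeR and 0 calls by DESeq2. By list, 6 of 7 LSm genes, whose ring binds U6 RNA, fell (median -3.42), 10 of 11 genes of branch point and 3′ splice site recognition (-2.87), 6 of 7 exon junction complex genes (-1.96), 11 of 15 SR-related genes and SR kinases (-1.66), 9 of 11 spliceosomal helicases (-1.57) and 14 of 17 other snRNP proteins (-1.50). The lowest shares were in the SMN complex and Sm methylation list, which loads Sm rings, with 5 of 12 (-1.39), the Prp19 and PRPF proteins, with 16 of 24 (-1.38), and other RNA-binding regulators, with 19 of 30 (-1.34). After correction 53 of these genes were in the fit, and 7 fell (15.7% of all genes) and 11 rose (19.5%). The minimum was set on mean counts over all libraries, so a gene could enter through its control counts alone. The corrected calls therefore support no direction for these lists. On the hepatocyte scale of the deposited counts 1 fell (1.49% of all genes) and 56 rose (64.4% of all genes).

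Puf60, which helps U2AF at the 3′ splice site, averaged 5.32 ± 1.72 CPM in miR-206 cells and 85.4 ± 1.63 CPM in control cells, and fell in both the deposited (-4.00) and the corrected counts (-2.46, adjusted p = 0.0291 by edgeR). The helicase gene Ddx5 averaged 15.6 ± 2.88 CPM in miR-206 cells and 264 ± 101 CPM in control cells and also fell in both (-4.08 and -1.46), as did Son, a large speckle protein (-3.38 and -1.53). In miR-206 cells Puf60, Ddx5 and Son stood at only 1.67, 3.97 and 1.75 times background. They entered the corrected fit through their control counts, so its calls are no independent support for these falls. Lsm4 (-3.42), Ptbp1 (-3.03), a repressor that binds pyrimidine tracts, and Prpf19 (-2.21), the ubiquitin ligase of the Prp19 complex, fell in the deposited counts; Lsm4 (-0.76) and Ptbp1 (-1.15) did not pass after correction and Prpf19 was not in that fit.

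Markers of other liver cells also differed between the groups, and their part in the result was not tested. In the deposited counts 29.6% of all genes fell, and after correction 15.7% fell and 19.5% rose. A marker, too, could enter the corrected fit through its control counts alone. Of 12 Kupffer cell markers, 12 fell in the deposited counts, and after correction 7 of 12 fell and 0 rose. Their sum was 109 to 179 CPM of nuclear-gene counts in miR-206 libraries and 484 to 1113 in control libraries. Of 11 sinusoidal endothelial markers, 11 fell (315 to 394 in miR-206 libraries, 454 to 843 in control libraries), and after correction 2 of 10 fell and 3 rose. Cholangiocyte markers (5 of 7 fell) summed to 142 to 232 in miR-206 libraries and 602 to 4068 in control libraries. Stellate cell markers (5 of 10 fell) summed to 251 to 427 in miR-206 libraries and 386 to 610 in control libraries. Lymphocyte markers (5 of 10 fell and 2 rose) summed to 169 to 245 in miR-206 libraries and 318 to 580 in control libraries. Neutrophil markers (3 of 7 fell) ran from 39.8 to 66.0 in miR-206 libraries and from 46.7 to 54.4 in control libraries, and red cell and platelet markers (3 of 8 fell) from 47.4 to 138 in miR-206 libraries and from 69.7 to 128 in control libraries. After correction 1 of 5 stellate cell and 1 of 4 neutrophil markers fell and 1 of each rose, the 1 lymphocyte marker left in the fit fell, and none of 3 cholangiocyte or 5 red cell and platelet markers was called. Of the hepatocyte markers themselves 12 of 15 fell in the deposited counts, with a median log2 fold change of -2.38. After correction 4 fell and 5 rose, with a median of 0.75. No marker gene was at 0 in all miR-206 or in all control libraries.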

How the data were processed

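Per the labels' protocols, an RNeasy Micro column gave the RNA and a SMARTER mRNA-Seq kit the libraries. For the 6 libraries the authors deposited 1 table of raw counts, by Ensembl gene. GRCm38 and mm10 are the builds in the submitters' processing notes. The sources used here do not give the aligner, the counter, its annotation or strand, so counts of overlapping genes and close copies are uncertain. Of 49315 genes, 49056 were matched by identifier to GENCODE M21, which gave positions and exonic lengths (the union of exons).

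Genes passing the filterByExpr defaults (minimum count 10) were scaled by TMM and tested with edgeR 4.0.16 (quasi-likelihood F test, robust, group as the single term), with Benjamini-Hochberg adjustment over all genes tested. SE is the log2 fold change divided by the square root of F. Background was the count density of 1431 protein-coding olfactory and vomeronasal receptor genes (5264 exonic kb); it was subtracted by exonic length, values under 0 were set to 0, and the tests were repeated. Alternatives were other scalings, no filter, DESeq2 1.42.0, a replicate block, minimums of 5 and 20 times background, and leaving out libraries; R 4.3.3, Python 3.11.15, pandas 2.3.3 and numpy 2.4.6 were used. The edgeR steps were tested on simulated data.

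The genes described, the pathway and marker lists and the tests were chosen with earlier results of these data known. The rule for named genes took, per family, the 3 smallest p, the highest control level per exonic kb, the 2 largest p, genes that rose or, where under 4, did not pass, and calls after correction (at most 4 a direction); from each pathway list, at most 2 by smallest p in each direction. Genes with a miR-206 site are named for the site, and the other Sm ring and snRNP genes to complete those groups. A total of 3 counts was the limit for a gene at 0, which is 0.197 to 0.722 CPM per library; Wilson intervals are at 95%, and both cover counting error only. No source says which library came from which mouse, so p-values measure the spread between these libraries, which may be partly technical.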

Additional observations from a re-analysis of the deposited data

Results flagged for a closer look

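Of the pseudogenes whose names match these families, 4 were left out by suffix. Each had a TMM-normalised CPM in every miR-206 library above that in every control library. Relative to background, this direction did not hold for Snrp1c-ps1 and Hnrnpa1l2-ps, as given below. Snrp1c-ps1 averaged 0.811 CPM in miR-206 cells and 0.274 CPM in control cells, and Snrp1c-ps2 averaged 1.04 CPM in miR-206 cells and 0.0692 CPM in control cells. Hnrnpa1l2-ps averaged 2.72 CPM in miR-206 cells and 0.937 CPM in control cells (log2 fold change 1.5, adjusted p = 0.067 by edgeR), and Hnrnpa1l2-ps2 averaged 1.75 CPM in miR-206 cells and 0.0755 CPM in control cells. Only Hnrnpa1l2-ps of these passed the filter on low counts. Relative to the receptor-gene background, the 4 stood at 2.39, 4.26, 4.11 and 2.86 times in miR-206 cells and at 2.66, 0.985, 4.66 and 0.373 times in control cells. Snrpert, the pseudogene closest in sequence to Snrpe, ran the other way, with 4, 2 and 3 counts in the miR-206 libraries and 8, 27 and 34 in the control libraries.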

How the results depend on the processing

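Of the genes that fell, the count was 42 in the main analysis, 27 by library size alone, 1 scaled on hepatocyte markers, 7 after background subtraction and 0 (chosen after seeing the data) without miR-206 2 and miR-206 3, where 0 rose as well; leaving out 1 library gave 39 to 46. The count that rose was 1, against 2 by library size or upper-quartile factors, 12 on hepatocyte markers, 5 after subtraction, and 0 with no filter, with DESeq2 or with the replicate block (0 to 1 without 1 library). After correction, the 7 falls became 3 of 14 genes tested at 20 times background (13.8% of all genes), 17 of 45 at 5 times (24.7%), 14 by library size and 3 to 10 without 1 library, and the 5 rises became 1 at 20 times (17.9%), by library size or on hepatocyte markers, and 2 to 7 without 1 library. The median of -2.46 was -1.37 by library size, -1.59 by upper quartile, 0.35 on hepatocyte markers and -0.37 after subtraction (-2.60 to -2.33 without 1 library). The share difference of -0.0859 percentage points ran from -0.0983 to -0.0713 without 1 library. The all-gene median was 0.45 in the main analysis, 1.47 by library size, 1.25 by upper quartile and 2.86 on hepatocyte markers. With the replicate number as a block, 41 genes fell in the deposited counts and 3 fell and 5 rose in the corrected counts; the calls lost were Srsf9 and Srsf12 (adjusted p 0.0868 and 0.0551) and, corrected, Hnrnpab, Hnrnpa2b1, Hnrnpdl and Sf3b5 (0.0504, 0.0504, 0.0648 and 0.0609, by edgeR). Deviations of same-numbered libraries correlated at 0.00818, 0.0230 and -0.00644, which does not show pairing, and which library came from which mouse is not given.

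Log2 fold changes of genes taken by the naming rule that changed sign were, on hepatocyte markers, Hnrnpa1 1.17, Hnrnpa3 1.22, Hnrnph3 2.23, Hnrnpll 2.79, Sf3a3 1.66, Sf3a1 2.32, Sf3b3 2.24, Snrpa1 1.29, Snrpc 1.41, Snrpn 2.21, Srsf3 0.048, Srsf9 1.14 and Srsf4 2.11; after subtraction, Hnrnpa1 1.14, Hnrnpa3 1.31, Hnrnph3 2.40, Sf3a3 1.67, Snrpa1 1.23 and Srsf9 0.79; by library size, Hnrnph3 0.81, Hnrnpll 1.02, Sf3a1 0.70, Sf3b3 0.74, Snrpn 0.47 and Srsf4 0.13; by upper quartile, Hnrnph3 0.57, Hnrnpll 0.78, Sf3a1 0.50, Sf3b3 0.52 and Snrpn 0.32; and without control 2, Hnrnpll 0.054 (-0.56 to 0.054 without 1 library, with a call without control 1). Of the genes outside that rule, 17 also changed sign on hepatocyte markers (Hnrnpa0 0.40, Hnrnpm 0.07, Hnrnpu 0.44, Sf3b1 0.16, Snrpa 0.30, Snrpg 0.90, Snrpb2 0.93, Srsf6 0.20 and Srsf1 1.14 among them), 6 after subtraction (Snrpa 0.08, Snrpg 0.90, Snrpb2 0.57 and Srsf1 0.76 among them), and Hnrnpd and Hnrnpul1 by library size (0.73 and 0.60) and upper quartile (0.51 and 0.37). The corrected fit differed in its counts, its genes and its TMM factors together, and the cause of the sign changes was not tested. Depth limits Srsf12, Sf3a2 and the other genes with under 40 counts in a miR-206 library.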
